A study of Mus musculus with 6 samples.

Results

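The collagen gene family was described in the ovaries of mice given M1 and of Control mice. Members were the genes whose symbol in the expression table read Col, a number, the letter a and a number, and 44 of the 55536 genes in the table met this rule. By the structure of their proteins they fell into 5 classes, with 11 fibrillar, 6 basement membrane, 6 beaded filament, 9 fibril-associated and 12 other collagen genes. M1, a mitochondrial fusion promoter of the phenylhydrazone type, was injected intraperitoneally at 10 mg per kg of body weight into 3 female ICR mice on the day of proestrus, at hour 9 and again at hour 16 of the day. Ovaries of these mice and of 3 Control mice, also female ICR animals 10 weeks old in proestrus, were collected at hour 20, which was 11 h after the first injection and 4 h after the second. The study speaks of control injections, but the sources used here do not name what they held. The labels call the M1 animals cycle disrupted and the Control animals normal. Both ovaries of a mouse were homogenized together and gave 1 polyA RNA library, so each value below belongs to 1 mouse and n = 3 for each group. ICR is an outbred strain, and a whole ovary mixes every cell type of the organ.

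Collagens are trimers of alpha chains that wind into a triple helix, and each gene of the family encodes 1 kind of chain. Fibrillar collagens build the tensile fibers of the ovarian stroma and of the theca around each follicle. Basement membrane collagen, type IV, forms the sheet that separates granulosa cells from theca and that surrounds vessels and smooth muscle, and beaded filament collagen, type VI, links cells to the fibers. Fibril-associated collagens sit on the surface of fibers. The collagen network around a preovulatory follicle is remodeled before the follicle ruptures.

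The 6 libraries held 12536440 to 18651402 counts assigned to genes. Collagen genes took 0.495%, 0.550% and 0.534% of these counts in M1 mice 1, 2 and 3, against 0.594%, 0.799% and 0.798% in Control mice 1, 2 and 3. Control mouse 1 was therefore nearest to the M1 mice, and the counts over the family are also given without it. Leaving out the Control mouse nearest to the M1 mice must widen the collagen difference, so calls made without it are no separate support. Marker genes of granulosa cells summed to 2235 to 4730 TPM, a unit of transcripts per length with 1 fixed total per library, in M1 mice and 3480 to 5254 TPM in Control mice, and those of oocytes to 275 to 545 TPM in M1 mice and 527 to 1015 TPM in Control mice, so the cell types that define an ovary were present in every library. Marker genes of the oviduct summed to 3.02 to 4.30 TPM in M1 mice and 2.25 to 4.61 TPM in Control mice.

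Most collagen genes had lower values in M1 ovaries, but none passed the threshold over all genes. Of the 38 collagen genes with enough counts to test, 31 had a negative log2 fold change and 7 a positive one, where the share of negative changes over all 17499 genes tested was 50.5%. The median log2 fold change over the collagen genes was -0.45, against -0.00 for all genes. The test was edgeR's quasi-likelihood test on counts with Benjamini-Hochberg adjustment over all genes, and a call needed an adjusted p under 0.05 and a fold above 1.5. It called 0 collagen genes lower and 0 higher, beside 0.0% and 0.00571% of all genes. At an unadjusted p under 0.05, 15 of the 38 collagen genes were lower and 2 were higher, against 9.17% and 7.7% of all genes. The adjusted p of these 17 genes lay between 0.195 and 0.296 in edgeR. M1 and Control values did not overlap for 12 collagen genes with all M1 mice below and for 2 with all M1 mice above, against 11.2% and 11.4% of all genes.

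**Figure D1:**
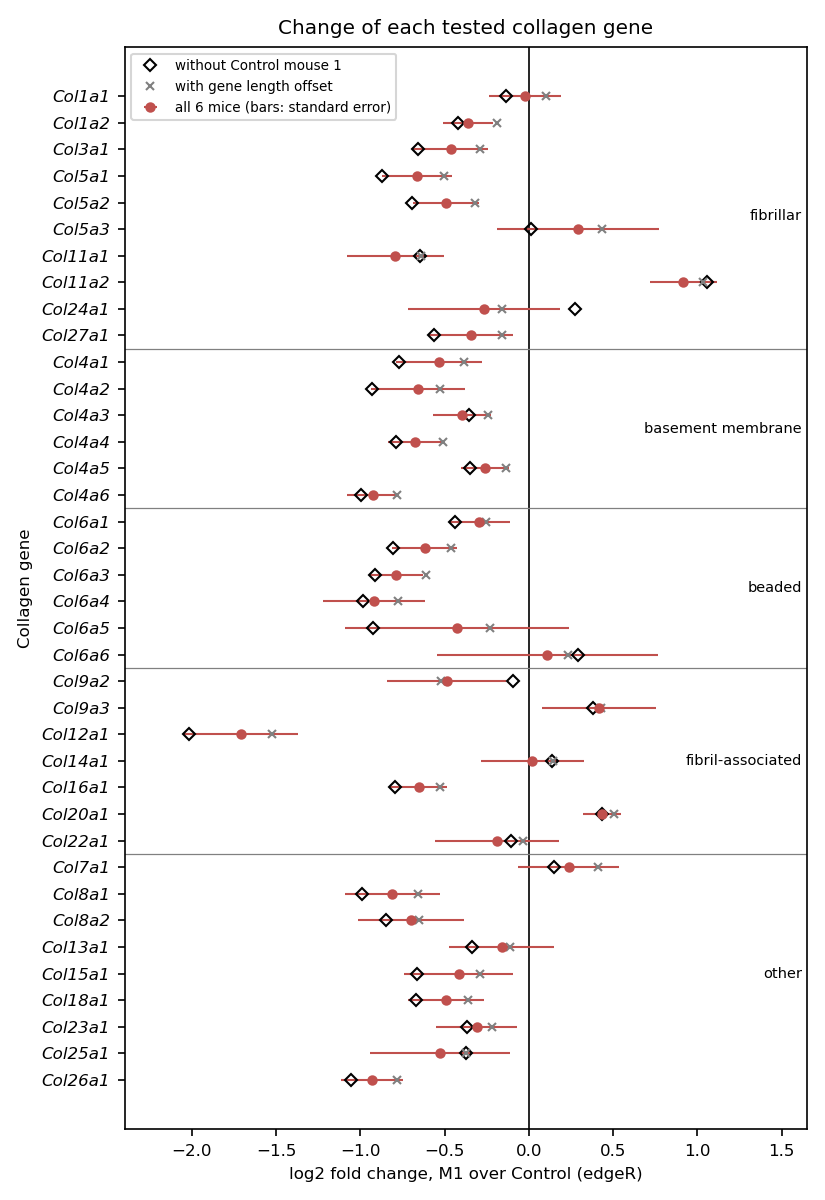
The log2 fold change of M1 over Control with its SE (edgeR, n = 3 mice per group) is plotted for the 38 tested collagen genes by class, with a diamond for the fit without Control mouse 1 and a cross for the fit with the length offset. Of the 38 genes, 31 lie below 0, with Col12a1 at -1.71 and Col11a2 at 0.92.

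How many collagen genes were called depended on the tool and on Control mouse 1. DESeq2 on the same counts called 6 lower, Col4a4, Col4a6, Col6a3, Col12a1, Col16a1 and Col26a1, and 1 higher, Col11a2, against 1.5% and 1.3% of the 15238 genes to which it gave an adjusted p. Without Control mouse 1, edgeR called 11 of 39 collagen genes lower and 1 higher, against 3.07% and 1.28% of all genes, with a median log2 fold change of -0.65. These 11 were the 6 genes of the DESeq2 list together with Col4a1, Col4a2, Col5a1, Col5a2 and Col6a2, and the gene called higher was again Col11a2. At an unadjusted p under 0.05, 22 genes were then lower and 2 higher, against 14.6% and 12.3%, and 23 genes had all M1 mice below both remaining Control mice, against 23.9%. Leaving out M1 mouse 1 left 8 genes lower at an unadjusted p under 0.05, against 6.92% of all genes. Control mouse 1 was the lowest of the 3 Control mice in 12 of the 15 genes, so leaving it out raised the Control means of these 12.

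Collagen transcripts are long, and the libraries differed in how values varied with length. The tested members had a median exon length of 7903 bases, against 3872 bases over all genes tested, and 36 of the 38 were longer than that second value. The slope of log2 CPM deviation on log2 length was -0.02, -0.07 and -0.07 in M1 mice 1, 2 and 3, and -0.02, 0.09 and 0.10 in Control mice 1, 2 and 3. The 2378 tested genes with lengths between the quartiles of the collagen lengths had log2 fold changes with a median of -0.15, and 17.6% of them were lower at an unadjusted p under 0.05. With an offset in edgeR that removed the length trend of each library, 10 collagen genes were lower and 2 higher at an unadjusted p under 0.05, against 7.47% and 7.26% of all genes, the median log2 fold change was -0.29, and none was called. With the same offset and without Control mouse 1, 17 were lower at an unadjusted p under 0.05, against 11.8%, and 1, Col12a1, was called lower and none higher, against 0.261% and 0.0889%. The part of transcript length in the lower collagen values was not tested beyond these fits.

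**Figure D2:**
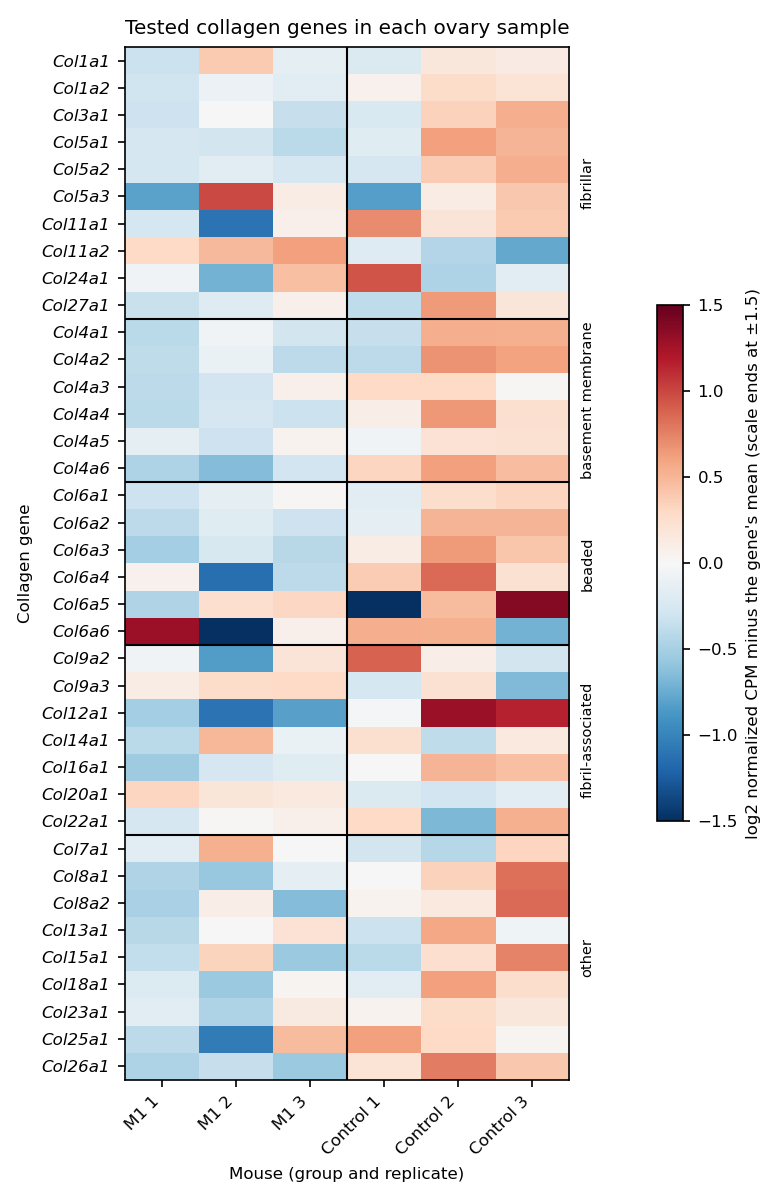
Normalized CPM of each of the 38 tested collagen genes are shown for M1 mice 1 to 3 and Control mice 1 to 3 as the log2 difference from the gene's mean over the 6 mice, with genes grouped by class and the color scale ending at 1.5 in either direction. In 25 of the 38 genes Control mouse 1 is the lowest of the Control mice.

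Summed over the family in TPM, the collagen level was lower in every M1 ovary sample than in every Control sample, but not in CPM. The 44 genes summed to 2035, 2076 and 2108 TPM in M1 mice, against 2486, 3431 and 3540.2 TPM in Control mice. All M1 sums lay below all Control sums, and Control mouse 1 was the lowest Control. In TPM, 23.1% of all genes tested also had all M1 mice below all Control mice. The means were 2073 ± 36.7 TPM in M1 mice and 3152 ± 580 TPM in Control mice (SD, n = 3 each), a log2 ratio of -0.59 ± 0.16 (SE), with p = 0.1 in a two-sided exact permutation test. That is the smallest p that 3 mice against 3 can give, and the adjusted p over the 6 sums was also 0.1. TPM divides by transcript length, and on the log2(TPM + 1) scale the median of all genes tested was itself -0.16. In CPM, counts relative to library size, scaled by the trimmed mean of M-values (TMM), the unit of the values for single genes, the family summed to 4962, 5759 and 5293 CPM in M1 mice, against 5557, 8207 and 8082 CPM in Control mice. On this scale the log2 ratio was -0.43, and Control mouse 1 lay within the range of the M1 mice.

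In TPM, each of the 5 classes had a lower summed level in all M1 mice than in all Control mice. Basement membrane collagens summed to 577, 607 and 589 TPM in M1 mice, against 671, 1143 and 1152 TPM in Control mice, with a log2 ratio of -0.70 ± 0.26. Fibrillar collagens summed to 757, 852 and 775 TPM in M1 mice, against 947, 1179 and 1249 TPM in Control mice, with a log2 ratio of -0.49 ± 0.13. Beaded filament collagens summed to 513, 449 and 548 TPM in M1 mice, against 619, 817 and 839 TPM in Control mice, with a log2 ratio of -0.58 ± 0.16. In these 3 classes Control mouse 1 lay between the M1 mice and the other Control mice. The fibril-associated collagens summed to 93.7, 73.3 and 96.7 TPM in M1 mice, against 135, 128 and 125 TPM in Control mice, with a log2 ratio of -0.57 ± 0.13, and the remaining collagens to 94.5, 94.1 and 98.0 TPM in M1 mice, against 114, 164 and 175 TPM in Control mice, with a log2 ratio of -0.63 ± 0.20. Each of these sums had p = 0.1 in the exact permutation test, the smallest possible. In TMM-normalized CPM the log2 ratios were -0.52, -0.34, -0.46, -0.58 and -0.45 in the same order, and Control mouse 1 lay within the M1 range for basement membrane, fibrillar and other collagens.

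**Figure D3:**
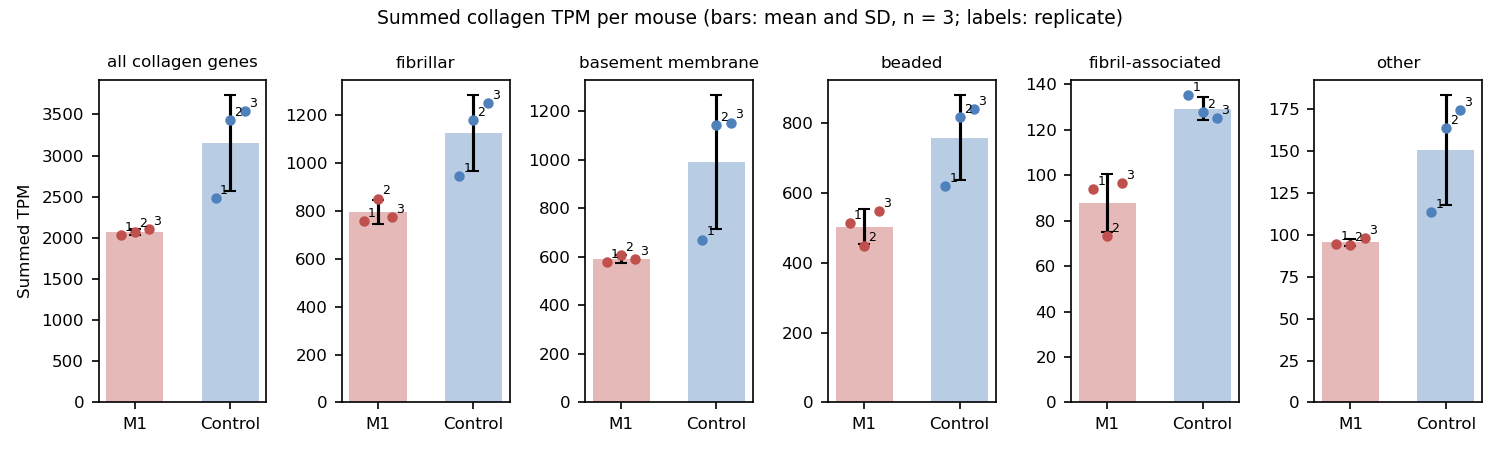
Summed TPM of all collagen genes and of each class is shown per mouse, with M1 mice left of Control mice and bars for the mean and SD (n = 3 mice per group). In every panel the 3 M1 points lie below the 3 Control points, at 2035 to 2108 TPM in M1 mice and 2486 to 3540 TPM in Control mice for the whole family.

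The type IV genes, which encode the basement membrane chains, lie in pairs that are transcribed away from each other. By GENCODE vM21 gene starts, Col4a1 and Col4a2 start 21 bases apart on chromosome 8 and Col4a3 and Col4a4 start 72 bases apart on chromosome 1. Col4a5 and Col4a6 start 1309 bases apart on chromosome X. The windows from 250 bases before to 50 bases after the start of 1 gene of each of the close pairs, and of both genes of the X-linked pair, are printed because the values below compare paired genes. They come from RefSeq on GRCm38.p6, run 5′ to 3′ on the strand of the named gene, and carry in capitals a CCAAT box (CCAAT or its reverse complement) or a GC box (GGGCGG or its reverse complement). The RefSeq start behind the Col4a5 window differs from the GENCODE start of that gene.
Col4a1, chr8:11312777-11313076, minus strand, with the Col4a2 start at position 272: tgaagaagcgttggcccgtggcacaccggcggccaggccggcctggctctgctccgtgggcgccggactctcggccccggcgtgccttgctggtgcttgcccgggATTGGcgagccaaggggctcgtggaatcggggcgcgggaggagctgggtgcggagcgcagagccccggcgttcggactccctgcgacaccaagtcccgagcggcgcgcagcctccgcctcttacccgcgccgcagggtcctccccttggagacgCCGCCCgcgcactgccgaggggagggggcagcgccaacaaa
Col4a4, chr1:82586800-82587099, minus strand, with the Col4a3 start at position 179: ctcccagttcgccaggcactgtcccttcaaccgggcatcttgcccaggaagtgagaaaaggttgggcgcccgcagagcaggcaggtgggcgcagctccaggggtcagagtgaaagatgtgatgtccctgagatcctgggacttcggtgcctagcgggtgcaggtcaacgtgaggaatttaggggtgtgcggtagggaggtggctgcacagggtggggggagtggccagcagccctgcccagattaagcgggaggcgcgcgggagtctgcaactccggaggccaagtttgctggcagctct
Col4a5, chrX:141475169-141475468, plus strand: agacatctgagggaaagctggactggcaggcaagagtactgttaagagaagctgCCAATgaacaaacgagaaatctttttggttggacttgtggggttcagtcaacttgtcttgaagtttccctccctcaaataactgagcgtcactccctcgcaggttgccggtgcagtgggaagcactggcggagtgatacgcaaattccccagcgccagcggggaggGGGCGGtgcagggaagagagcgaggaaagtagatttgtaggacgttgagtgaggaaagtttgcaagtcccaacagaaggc
Col4a6, chrX:141474027-141474326, minus strand: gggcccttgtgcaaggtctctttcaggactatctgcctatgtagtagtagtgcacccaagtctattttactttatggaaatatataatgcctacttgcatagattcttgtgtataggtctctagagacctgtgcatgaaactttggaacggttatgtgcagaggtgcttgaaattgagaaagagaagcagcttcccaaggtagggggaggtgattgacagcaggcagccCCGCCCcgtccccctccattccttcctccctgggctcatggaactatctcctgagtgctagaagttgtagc
The Col4a1 window held both motifs and 74.0% G and C, the Col4a5 window held both, the Col4a6 window held a GC box, and in the Col4a4 window neither of these letter strings was found. The CCAAT box occurred in 34.2% and the GC box in 60.5% of the 38 windows of the 35 collagen genes with an entry, against 37.4% and 35.7% of all 32851 windows of this length. TATAAA, searched in the same way, occurred in 13.2% of collagen windows and 13.6% of all windows. No overlap between motifs arose in the printed windows, and these matches describe letters only.

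All 6 type IV genes had negative log2 fold changes, with a median of -0.60. At an unadjusted p under 0.05 in edgeR, 4 of them were lower, against 9.17% of all genes. Col4a1 and Col4a2 encode the chains found in nearly every basement membrane. Col4a1 had 728, 924 and 796 CPM in M1 mice, against 758, 1396 and 1385 CPM in Control mice, with a log2 fold change of -0.53 ± 0.26 (SE, edgeR adjusted p = 0.333). Col4a2 had 389, 473 and 386 CPM in M1 mice, against 387, 814 and 770.1 CPM in Control mice, with a log2 fold change of -0.66 ± 0.28 (SE, edgeR adjusted p = 0.293). For both genes Control mouse 1 stood with the M1 mice, and the other 2 Control mice stood above all M1 mice. Without Control mouse 1 both were called lower by edgeR, with log2 fold changes of -0.77 and -0.93.

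The Col4a3 and Col4a4 chains combine with the Col4a5 chain in a network best known from the kidney glomerulus, in which mutations of these genes cause Alport syndrome. Col4a3 had 17.0, 18.3 and 23.5 CPM in M1 mice, against 27.3, 27.4 and 22.7 CPM in Control mice, with a log2 fold change of -0.40 ± 0.17 (SE, edgeR adjusted p = 0.296), and the groups overlapped through M1 mouse 3 and Control mouse 3. Col4a4 had 60.1, 66.7 and 63.3 CPM in M1 mice, against 85.1, 125 and 93.7 CPM in Control mice, with a log2 fold change of -0.68 ± 0.16 (SE, edgeR adjusted p = 0.195). All M1 mice lay below all Control mice for Col4a4, and DESeq2 called it lower with an adjusted p of 0.0300.

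The Col4a5 and Col4a6 chains form the network found in basement membranes around smooth muscle. Col4a6 had 18.1, 15.9 and 20.5 CPM in M1 mice, against 31.2, 38.0 and 34.3 CPM in Control mice, with a log2 fold change of -0.93 ± 0.15 (SE, edgeR adjusted p = 0.195). Its groups were well apart, with the highest M1 mouse below the lowest Control mouse, and the DESeq2 adjusted p was 6.98e-04. Col4a5 had 100.5, 88.6 and 114 CPM in M1 mice, against 106, 128 and 129 CPM in Control mice, with a log2 fold change of -0.26 ± 0.14 (SE, edgeR adjusted p = 0.385), and Control mouse 1 lay within the M1 range. The ratio of Col4a5 to Col4a6, in TPM, was 6.58, 6.62 and 6.63 in M1 mice, against 4.02, 4.00 and 4.46 in Control mice. The ratio was thus nearly constant within each group and higher in all M1 mice, with a log2 difference of 0.67 ± 0.05 (SE). The exact permutation p was 0.1, the smallest possible, and 0.2 after adjustment over the 8 chain ratios computed. In contrast, the Col4a1 to Col4a2 ratio was 1.66, 1.73 and 1.83 in M1 mice, against 1.74, 1.52 and 1.60 in Control mice, and the Col4a3 to Col4a4 ratio was 0.3004, 0.292 and 0.395 in M1 mice, against 0.342, 0.233 and 0.257 in Control mice. The groups overlapped for both, with exact permutation p = 0.3 and 0.4 (adjusted 0.4 and 0.457).

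**Figure D4:**
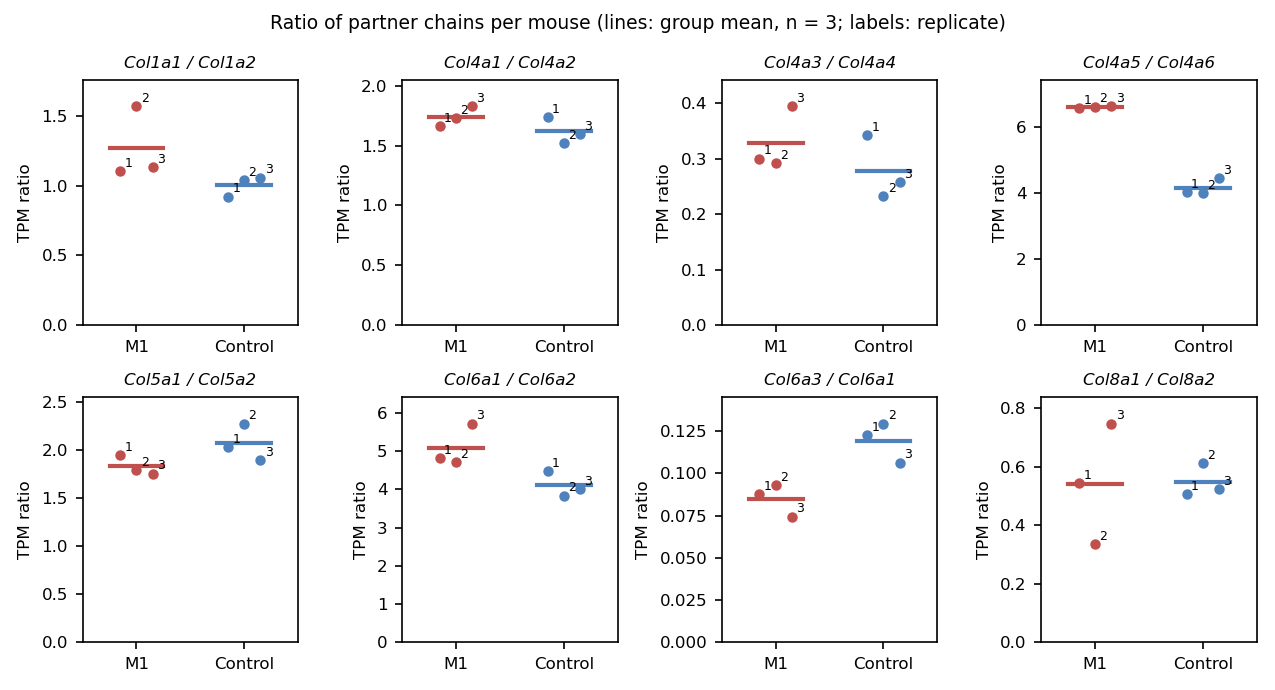
Ratios of the TPM of 2 collagen chains are shown per mouse for 8 pairs of chains, with M1 mice left of Control mice and a line at each group mean (n = 3 mice per group). The Col4a5 to Col4a6 ratio is 6.58 to 6.63 in M1 mice and 4.00 to 4.46 in Control mice.

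Among the fibrillar genes, 10 of 11 were tested, with a median log2 fold change of -0.35. At an unadjusted p under 0.05 in edgeR, 4 were lower and 1 higher, against 9.17% and 7.7% of all genes. The chains of type I collagen, the main protein of tensile fibers, had unequal fold changes. Col1a1 had 437, 715 and 492 CPM in M1 mice, against 469, 610.2 and 592 CPM in Control mice, with a log2 fold change of -0.02 ± 0.22 (SE, edgeR adjusted p = 0.966), and the sign of this value changed in 7 of 17 alternatives. Col1a2 had 749, 863 and 822 CPM in M1 mice, against 964, 1110.1 and 1059 CPM in Control mice, with a log2 fold change of -0.36 ± 0.15 (SE, edgeR adjusted p = 0.281). All M1 mice lay below all Control mice for Col1a2, while for Col1a1 M1 mouse 2 had the highest value of the 6. The ratio of Col1a1 to Col1a2 was 1.10, 1.57 and 1.13 in M1 mice, against 0.922, 1.04 and 1.06 in Control mice, with a log2 difference of 0.32 ± 0.17 (exact permutation p = 0.1, adjusted 0.2). Without M1 mouse 2 this difference was 0.15. The ratio carries no length offset, and the exon lengths were 6563 bases for Col1a1 and 12426 for Col1a2. With the offset their log2 fold changes were 0.10 and -0.19.

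Col3a1, Col5a1 and Col5a2 had negative log2 fold changes, with Control mouse 1 close to the M1 mice. Col3a1, the chain of reticular fibers, had 703, 872 and 685 CPM in M1 mice, against 746, 1106 and 1269 CPM in Control mice, with a log2 fold change of -0.47 ± 0.23 (SE, edgeR adjusted p = 0.337). Col5a1, whose protein controls the diameter of type I fibrils, had 121, 119.6 and 109 CPM in M1 mice, against 128, 222 and 206 CPM in Control mice, with a log2 fold change of -0.67 ± 0.21 (SE, edgeR adjusted p = 0.221). Col5a2, its partner chain, had 70.3, 75.3 and 70.5 CPM in M1 mice, against 71.0, 110.1 and 122 CPM in Control mice, with a log2 fold change of -0.49 ± 0.20 (SE, edgeR adjusted p = 0.279). Control mouse 1 was above all M1 mice for Col5a1 and within the M1 range for the other 2 genes. The Col5a1 to Col5a2 ratio was 1.95, 1.79 and 1.75 in M1 mice, against 2.03, 2.27 and 1.90 in Control mice, and the groups overlapped (exact permutation p = 0.2, adjusted 0.32). Without Control mouse 1, edgeR called Col5a1 and Col5a2 lower, with log2 fold changes of -0.87 and -0.69.

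The type XI chains, which nucleate fibrils and are best known from cartilage, had fold changes of opposite sign. Col11a1 had 65.7, 36.5 and 83.1 CPM in M1 mice, against 128, 89.7 and 103 CPM in Control mice, with a log2 fold change of -0.79 ± 0.29 (SE, edgeR adjusted p = 0.249). Col11a2 had 16.5, 18.8 and 20.6 CPM in M1 mice, against 11.8, 9.96 and 7.93 CPM in Control mice, with a log2 fold change of 0.92 ± 0.20 (SE, edgeR adjusted p = 0.195). The groups did not overlap for either gene, with M1 mice below for Col11a1 and above for Col11a2. Col11a2 was called higher by DESeq2 (adjusted p = 0.00966) and by edgeR without Control mouse 1. Col5a3, Col24a1 and Col27a1, the remaining tested fibrillar genes, had log2 fold changes between -0.34 and 0.29, and their groups overlapped.

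The 6 beaded filament genes had log2 fold changes with a median of -0.52. At an unadjusted p under 0.05 in edgeR, 3 were lower, against 9.17% of all genes. Type VI collagen is assembled from Col6a1, Col6a2 and 1 further chain, most often Col6a3. Col6a1 had 430.5, 489.8 and 542 CPM in M1 mice, against 476, 645 and 672 CPM in Control mice, with a log2 fold change of -0.29 ± 0.18 (SE, edgeR adjusted p = 0.432). Col6a2 had 169.8, 198 and 180.2 CPM in M1 mice, against 202, 319.5 and 319 CPM in Control mice, with a log2 fold change of -0.62 ± 0.19 (SE, edgeR adjusted p = 0.225). Col6a3 had 103, 124 and 110.4 CPM in M1 mice, against 159, 228 and 195 CPM in Control mice, with a log2 fold change of -0.79 ± 0.16 (SE, edgeR adjusted p = 0.195). M1 mice lay below all Control mice for Col6a2 and Col6a3, and Control mouse 1 lay within the M1 range for Col6a1. DESeq2 called Col6a3 lower with an adjusted p of 0.00649.

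The balance among the type VI chains was also compared. The Col6a3 to Col6a1 ratio was 0.0878, 0.0930 and 0.0745 in M1 mice, against 0.122, 0.130 and 0.106 in Control mice, a log2 difference of -0.49 ± 0.13, and the Col6a1 to Col6a2 ratio was 4.82, 4.70 and 5.72 in M1 mice, against 4.47, 3.84 and 4.00 in Control mice, a log2 difference of 0.31 ± 0.11. All M1 mice lay on 1 side of all Control mice for both ratios, with exact permutation p = 0.1, the smallest possible, and 0.2 after adjustment. These ratios carry no length offset, and the exon lengths were 4380 bases for Col6a1, 8326 for Col6a2 and 11963 for Col6a3. With the length offset the log2 fold changes of these genes were -0.25, -0.46 and -0.61, nearer to each other than the -0.29, -0.62 and -0.79 without it. The part of length in the ratios was not tested. Col6a4, Col6a5 and Col6a6 lie in a row on chromosome 9 and encode alternatives to Col6a3 in this trimer. Col6a4 had 139.8, 60.8 and 102 CPM in M1 mice, against 174, 242 and 156 CPM in Control mice, with a log2 fold change of -0.92 ± 0.30 (SE, edgeR adjusted p = 0.233), and the groups did not overlap. Col6a5 ranged over 40.6 to 69.1 CPM in M1 mice and 14.3 to 145 CPM in Control mice, and Col6a6 over 14.7 to 118 CPM in M1 mice and 29.6 to 70.5 CPM in Control mice. The groups overlapped widely for both genes.

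The fibril-associated class held the member with the largest change among the tested collagens, but its median, -0.19, was the nearest to 0 of the class medians and changed sign with the processing, to 0.06 without Control mouse 3. Col12a1, which coats type I fibers and responds to mechanical load, had 29.7, 19.6 and 24.0 CPM in M1 mice, against 41.8, 104 and 94.4 CPM in Control mice, with a log2 fold change of -1.71 ± 0.34 (SE, edgeR adjusted p = 0.195). M1 mice lay below all Control mice, and Control mouse 1 was well below the other 2 Control mice. It was called lower by DESeq2 with an adjusted p of 2.08e-04, and by edgeR without Control mouse 1 with a log2 fold change of -2.02. Col16a1, found at the border of fibers and basement membranes, had 46.6, 56.9 and 59.6 CPM in M1 mice, against 67.9, 95.9 and 92.7 CPM in Control mice, with a log2 fold change of -0.65 ± 0.17 (SE, edgeR adjusted p = 0.201), with no overlap, and a DESeq2 adjusted p of 0.0487. Col20a1 had 54.2, 49.1 and 47.8 CPM in M1 mice, against 37.3, 35.6 and 38.9 CPM in Control mice, with a log2 fold change of 0.43 ± 0.11 (SE, edgeR adjusted p = 0.201). It was the other gene with all M1 mice above all Control mice, but its fold was under 1.5 and it was called under none of the alternatives. Col9a2, a chain of the type IX collagen of cartilage fibers, had 26.5, 15.4 and 31.6 CPM in M1 mice, against 51.0, 29.6 and 22.7 CPM in Control mice, with a log2 fold change of -0.49 ± 0.35 (SE, edgeR adjusted p = 0.506), and the groups overlapped. Without Control mouse 1 its log2 fold change was -0.10. The 3 other tested genes, Col9a3, Col14a1 and Col22a1, had log2 fold changes between -0.19 and 0.42, also with overlap.

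Of the other collagens, 9 of 12 were tested, with a median log2 fold change of -0.49. At an unadjusted p under 0.05 in edgeR, 2 were lower, against 9.17% of all genes. Col26a1, first described in mouse testis and ovary, had 13.3, 14.3 and 12.4 CPM in M1 mice, against 21.1, 31.1 and 24.2 CPM in Control mice, with a log2 fold change of -0.93 ± 0.18 (SE, edgeR adjusted p = 0.195). No M1 mouse reached the Control range, and DESeq2 called Col26a1 lower with an adjusted p of 0.00573. Col8a1 and Col8a2 encode network-forming chains of vessel walls and of the cornea. Col8a1 had 4.68, 4.34 and 5.77 CPM in M1 mice, against 6.36, 8.17 and 11.4 CPM in Control mice, with a log2 fold change of -0.81 ± 0.28 (SE, edgeR adjusted p = 0.243). Col8a2 had 4.94, 7.41 and 4.43 CPM in M1 mice, against 7.18, 7.66 and 12.4 CPM in Control mice, with a log2 fold change of -0.70 ± 0.31 (SE, edgeR adjusted p = 0.311). M1 mice lay below all Control mice for Col8a1, and M1 mouse 2 lay within the Control range for Col8a2. Their ratio was 0.543, 0.335 and 0.747 in M1 mice, against 0.508, 0.611 and 0.523 in Control mice, with exact permutation p = 0.9.

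Col15a1 and Col18a1 encode the collagens of the basement membrane zone whose C-terminal parts are cleaved to restin and endostatin, inhibitors of vessel growth. Col15a1 had 59.8, 97.2 and 52.7 CPM in M1 mice, against 58.6, 92.0 and 129 CPM in Control mice, with a log2 fold change of -0.42 ± 0.32 (SE, edgeR adjusted p = 0.541). Col18a1 had 98.1, 77.4 and 117 CPM in M1 mice, against 102, 174 and 136 CPM in Control mice, with a log2 fold change of -0.49 ± 0.23 (SE, edgeR adjusted p = 0.317). The groups overlapped for both genes. Col7a1, Col13a1, Col23a1 and Col25a1, whose means lay under 10 CPM in both groups, had log2 fold changes between -0.53 and 0.24, also with overlap.

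The 6 members with too few counts to test in all 6 libraries were Col2a1 with 1 to 6 counts per library, Col9a1 with 0 to 2, Col10a1 with 0 to 8, Col17a1 with 3 to 36, Col19a1 with 1 to 6 and Col28a1 with 3 to 19. They were too sparse for a test at this depth. By level per length averaged over all 6 mice, the most abundant members were Col4a1 with 327 ± 16.4 TPM in M1 mice and 536 ± 155 TPM in Control mice, Col6a1 with 334 ± 38.3 TPM in M1 mice and 464 ± 73.4 TPM in Control mice, and Col3a1 with 229 ± 16.8 TPM in M1 mice and 360 ± 88.0 TPM in Control mice (SD, n = 3 each). This order did not hold within M1 mice, where Col6a1 had the highest mean and Col1a1, with 248 ± 48.2 TPM, was above Col3a1. The sources used here do not state whether counting used the strand. Reads of Col4a1 and Col4a2, of Col9a3 and Tcfl5 and of Col10a1 and Nt5dc1, which have exons overlapping on opposite strands, therefore cannot be told apart there, and the same holds for the exons of Col4a2, Col4a3, Col5a1, Col6a4, Col6a6, Col15a1 and Col22a1 that overlap noncoding genes on the opposite strand. Col20a1 shares exon sequence with an overlapping transcript on the same strand.

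Genes that make, bind and cleave collagen were read beside the family. Of 58 such genes in 4 lists, 52 were tested, 35 had negative and 17 positive log2 fold changes, and the median was -0.20. Over all genes tested, 50.5% of log2 fold changes were negative. At an unadjusted p under 0.05, 9 of the 52 were lower and 1 higher, against 9.17% and 7.7% of all genes. No gene of these lists was called by edgeR. DESeq2 called 3 of them lower, Colgalt2, P3h2 and Mmp2 (adjusted p = 0.00231, 0.0329 and 0.00918), and 1 higher, Itga10 (adjusted p = 0.0153). The DESeq2 shares over all genes were 1.5% lower and 1.3% higher. Without Control mouse 1, edgeR called 3 lower, P3h2, Ddr2 and Mmp2 (adjusted p = 0.0390, 0.0352 and 0.0239), against 3.07% of all genes. Among the 23 enzymes and chaperones of the endoplasmic reticulum, 4 were lower at an unadjusted p under 0.05. Colgalt2, which adds galactose to hydroxylysine, had 6.495, 19.4 and 5.93 CPM in M1 mice, against 57.5, 29.6 and 35.3 CPM in Control mice, with a log2 fold change of -1.94 ± 0.48 (SE, edgeR adjusted p = 0.197). All M1 mice lay below all Control mice. Colgalt1, the more widely expressed enzyme of the same kind, had 82.9, 67.2 and 45.5 CPM in M1 mice, against 91.3, 102 and 133 CPM in Control mice, with a log2 fold change of -0.74 ± 0.24 (SE, edgeR adjusted p = 0.230). P3h2, a prolyl 3-hydroxylase that acts on type IV collagen, had 15.5, 17.1 and 9.73 CPM in M1 mice, against 15.5, 64.4 and 35.6 CPM in Control mice, with a log2 fold change of -1.45 ± 0.47 (SE, edgeR adjusted p = 0.232), with Control mouse 1 within the M1 range. For Colgalt1 the groups did not overlap.

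Among the 12 tested genes of propeptide cleavage and crosslinking, 2 were lower at an unadjusted p under 0.05, against 9.17% of all genes. Pxdn, the peroxidase that crosslinks type IV collagen, had 149, 123 and 140.3 CPM in M1 mice, against 160.0, 201 and 208 CPM in Control mice, with a log2 fold change of -0.46 ± 0.15 (SE, edgeR adjusted p = 0.226), without overlap. Adamts3, a procollagen N-proteinase, had 2.08, 0.769 and 1.27 CPM in M1 mice, against 1.98, 3.13 and 3.31 CPM in Control mice, with a log2 fold change of -1.03 ± 0.43 (SE, edgeR adjusted p = 0.292). Adamts2, the main procollagen N-proteinase, had 199, 152 and 191 CPM in M1 mice, against 215, 238 and 216 CPM in Control mice, with a log2 fold change of -0.30 ± 0.14 (SE, edgeR adjusted p = 0.318). For Pxdn and Adamts2 all M1 mice lay below all Control mice, and M1 mouse 1 lay above Control mouse 1 for Adamts3. Of the 9 tested receptor and uptake genes, 2 were lower and 1 higher at an unadjusted p under 0.05, against 9.17% and 7.7%. Ddr2, a receptor kinase for fibrillar collagen, had 82.6, 68.1 and 65.9 CPM in M1 mice, against 86.3, 146 and 129 CPM in Control mice, with a log2 fold change of -0.74 ± 0.20 (SE, edgeR adjusted p = 0.202). Mrc2, the endocytic collagen receptor, had 36.8, 52.2 and 32.7 CPM in M1 mice, against 42.2, 72.0 and 81.6 CPM in Control mice, with a log2 fold change of -0.69 ± 0.27 (SE, edgeR adjusted p = 0.272). Itga10, an integrin chain that binds collagen, had 9.74, 10.98 and 10.3 CPM in M1 mice, against 5.604, 5.81 and 5.54 CPM in Control mice, with a log2 fold change of 0.87 ± 0.19 (SE, edgeR adjusted p = 0.195). M1 mice lay below all Control mice for Ddr2 and above all of them for Itga10, and Mrc2 overlapped.

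Of the 8 tested collagenases, 1 was lower at an unadjusted p under 0.05, against 9.17% of all genes. Mmp2, a gelatinase that cleaves denatured collagen and type IV collagen, had 70.3, 62.9 and 54.7 CPM in M1 mice, against 79.8, 163 and 169 CPM in Control mice, with a log2 fold change of -1.13 ± 0.28 (SE, edgeR adjusted p = 0.195). Mmp9, the other gelatinase, had 2.08, 0.630 and 2.93 CPM in M1 mice, against 2.94, 4.15 and 4.94 CPM in Control mice, with a log2 fold change of -1.10 ± 0.51 (SE, edgeR adjusted p = 0.323). Mmp16, a membrane-bound metalloproteinase, had 4.42, 3.22 and 4.82 CPM in M1 mice, against 7.45, 6.51 and 4.45 CPM in Control mice, with a log2 fold change of -0.56 ± 0.29 (SE, edgeR adjusted p = 0.363). For Mmp2 and Mmp9 no M1 mouse reached the Control range, and Mmp16 overlapped. For Mmp9 the groups all but met, with 2.926 CPM in M1 mouse 3 and 2.939 CPM in Control mouse 1. Mmp1a and the platelet collagen receptor Gp6 had 0 counts in all 6 libraries.

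Marker lists of the ovary's cell types were read beside the family, with 9.17% of all genes lower and 7.7% higher at an unadjusted p under 0.05. In a whole ovary, fewer cells of a type and less RNA per cell cannot be told apart. Stromal markers other than collagens summed to 579 to 710 TPM in M1 mice and 790 to 897 TPM in Control mice, and 5 of these 10 genes had negative and 5 positive log2 fold changes, with 2 lower at an unadjusted p under 0.05. Markers of smooth muscle and pericytes summed to 739 to 952 TPM in M1 mice and 1056 to 1327 TPM in Control mice, and 9 of 10 were negative with a median of -0.30, but none at an unadjusted p under 0.05. Endothelial markers summed to 219 to 313 TPM in M1 mice and 260 to 380 TPM in Control mice, with 5 of 9 negative, 1 lower and 1 higher at an unadjusted p under 0.05. Luteal markers summed to 4849, 19201 and 4238 TPM in M1 mice, against 2282, 12951 and 8735 TPM in Control mice, so Control mouse 1 had the lowest sum. Of these sums, Akr1c18 alone gave 1040, 13670 and 959 TPM in M1 mice, against 8.97, 6510 and 3191 TPM in Control mice. Of the 6 luteal markers 2 were negative and 4 positive, with 1 higher at an unadjusted p under 0.05. The sums in M1 and Control mice were 445 to 968 and 417 to 1230 TPM for theca, 218 to 260 and 173 to 358 TPM for macrophages, and 85.2 to 132 and 112 to 140 TPM for surface epithelium. Negative were 2 of 5 theca, 3 of 6 macrophage, 2 of 6 surface epithelium and 3 of 8 granulosa markers. Among these only 1 theca marker was lower at an unadjusted p under 0.05, and none was higher. All 8 oocyte markers were negative, with a median of -0.59 and 4 lower at an unadjusted p under 0.05. Without Control mouse 1, which had the highest oocyte sum, 1 was lower, against 14.6% of all genes, and the median was -0.35. Of the 4 fat markers only Plin1, named after its values were seen, had enough counts to test, so the list is not read as a set. No marker of any list was at 0 in all libraries, and the part of these cells in the collagen values was not tested.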

How the data were processed

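RNA-seq of whole ovaries was compared between 3 M1 mice and 3 Control mice. The authors trimmed reads with Trimmomatic 0.38, aligned with HISAT2 2.1.0 to GRCm38 and obtained gene counts from featureCounts 2.0.0, per the submitters' processing notes. The deposited counts are raw whole numbers per gene. The deposited TPM and FPKM values were scaled by the authors to library size and transcript length. Exon lengths recovered from the counts and FPKM matched GENCODE vM21 exon unions within 1 base.

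Counts were filtered with filterByExpr (minimum count 10), scaled by TMM and tested with edgeR 4.0.16 (R 4.3.3) by the quasi-likelihood test. The SE of a single gene was derived, as the size of its log2 fold change divided by the square root of the test's F statistic. Common biological variation was 0.257. A call needed an adjusted p under 0.05 and a fold above 1.5. Single genes are given as TMM-normalized CPM, and sums and ratios as TPM, with exact permutation tests over mice. DESeq2 1.42.0, limma 3.58.1 (voom, and log2 of TPM plus 1 or 0.1), RLE factors, 2 other count filters, a replicate block, a lowess length offset (span 0.5) and each mouse left out were alternatives. Values given per mouse are those of collagen genes called by edgeR or DESeq2 or with an unadjusted edgeR p under 0.05, the 2 most abundant of each class by TPM, partner chains in the ratios, and the up to 3 genes of lowest p in each list of genes that make, bind and cleave collagen. Akr1c18 of the luteal list, named after its values were seen, is also given per mouse. Members and lists were chosen with earlier results of these data known. Library sizes of 12536440 to 18651402 counts set the precision, and intervals between mice rest on n = 3. The procedure was tested on simulated data.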

Additional observations from a re-analysis of the deposited data

How the results depend on the processing

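The negative median of the collagen genes kept its sign in every alternative run, and lay between -0.65 and -0.38 with each mouse left out in turn. The number called lower by edgeR, 0 of 38, was 6 with DESeq2, against 1.5% of all genes. It was 4 of 44 with no filter beyond 1 count, against 78 of all 33353 genes. It was 11 without Control mouse 1, against 3.07% of all genes, and 0 with any other mouse left out. With the length offset without Control mouse 1 it was 1, against 0.261%. The number called higher was 1 with DESeq2, against 1.3% of all genes, and 0 to 1 with each mouse left out. The 1 came without Control mouse 1, against 1.28%. At an unadjusted p under 0.05 the number lower, 15, ranged over 8 to 22 with each mouse left out, where the share of all genes ranged over 4.91% to 14.6%. The number higher, 2, was 1 with log2(TPM + 1) and 1 with log2(TPM + 0.1), against 3.21% and 3.13% of all genes. Genes with all M1 mice below numbered 22 in TPM, where the share of all genes was 23.1%, against 12 in CPM, where it was 11.2%. They numbered 12 to 23 with each mouse left out, and 23 came without Control mouse 1, where the share was 23.9%. Of the genes that make, bind and cleave collagen, the number lower, 9, was 5 with the length offset and replicate block (5.46% of all genes). It was 21 in TPM with either pseudocount (17.1%) and 5 to 16 with each mouse left out (4.91% to 14.6%). The number higher, 1, was 1 to 3 with each mouse left out (4.43% to 12.3% of all genes) and 2 with the length offset without Control mouse 1 (11.7%). The log2 fold change of Col1a1, -0.02, turned to 0.10 with the length offset, 0.068 with the offset and block, 0.024 with the offset without Control mouse 1, and ranged over -0.26 to 0.13 with each mouse left out, being 0.05 without Control mouse 2, 0.02 without Control mouse 3, 0.13 without M1 mouse 1 and 0.07 without M1 mouse 3. The log2 difference of the Col8a1 to Col8a2 ratio, -0.09, ranged over -0.35 to 0.22 with each mouse left out, and 0.22 came without M1 mouse 2. The fibril-associated median turned to 0.03 with the length offset and block and to 0.10 with the offset without Control mouse 1. The cause of these changes was not tested.

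The labels name nothing that same-numbered mice shared beyond the number. Their correlations of deviations were 0.07, 0.11 and -0.25, where those of differently numbered mice ranged over -0.35 to 0.34. These few values cannot show whether a batch was shared. With the replicate block, 13 collagen genes were lower and 2 higher at an unadjusted p under 0.05, against 6.39% and 5.81% of all genes, the median was -0.42 and none was called. The log2 differences of the sums and ratios, -0.59 for the whole family, cannot change with the block, since each number has 1 mouse per group. For the whole family the exact sign-flip test over same-numbered mice gave p = 0.25, the smallest it can give with 3 pairs. The fits without Control mouse 1 under the length offset, and the sums in TMM-normalized CPM, were chosen after seeing the data. With 3 mice a group, no sum or ratio could reach an exact p under 0.1.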

Other observations

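The mice of a group did not share 1 collagen level. The median deviation of the 38 tested collagen genes from their means over the 6 mice, in log2 CPM, was -0.32, -0.18 and -0.05 in M1 mice 1, 2 and 3, and -0.04, 0.32 and 0.32 in Control mice 1, 2 and 3. M1 mouse 3 and Control mouse 1 thus had nearly the same collagen level by this measure. By class, Control mouse 1 stood at -0.20 for fibrillar genes and at 0.02 for basement membrane genes, while M1 mouse 3 stood at -0.03 for fibrillar genes and -0.28 for basement membrane genes. After the length offset the medians over all tested collagen genes were -0.30, -0.09 and 0.00 in M1 mice, and -0.03, 0.23 and 0.22 in Control mice.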
